A study of Mus musculus with 13 samples.

Results

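Stem cell niche cytokines are secreted or membrane-bound proteins through which supporting stroma acts on blood stem and progenitor cells. Followed here in mouse stroma were 8 such genes, namely the chemokine gene Cxcl12, the growth factor genes Kitl, Angpt1 and Csf1, the heparin-binding cytokine genes Ptn and Mdk, and the gp130 cytokine genes Lif and Il11. They were chosen by name, as 8 of the 18193 genes with a probe set that carries a single gene symbol in the platform annotation, and each was read from its probe set with the highest mean over 13 Affymetrix mouse arrays. Of these 8 genes, 7 entered the tests among 12205 genes, and Il11 stayed under the filter on low values.

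The cells were UG26-1B6, a single stromal clone from the urogenital ridge of a midgestation mouse embryo. For co-culture, confluent stroma received 30 Gy of irradiation, then LSK cells were added, sorted cells that lack lineage markers and carry Sca-1 and c-Kit, and the stroma was collected after 1, 2 or 3 days (LSK d1, n = 3; LSK d2, n = 3; LSK d3, n = 2). A medium control was taken 24 h after a change of medium (medium d1, n = 2), and d0 cells were trypsinised without co-culture (n = 3). The labels do not say if d0 and medium d1 cells had also been irradiated, or how LSK cells were removed when the stroma was taken. Sample titles call the replicates biological and the design text calls them technical, so a p-value here reflects array-to-array spread that may be technical.

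CXCL12 binds CXCR4 on blood stem cells and holds them in the niche, and perivascular stroma of bone marrow is its best-known source. Membrane-bound and soluble KITL act through the receptor KIT, ANGPT1 acts through TEK, and CSF1 acts through CSF1R on the monocyte lineage. PTN and MDK are related growth factors that bind PTPRZ1, ALK and syndecans, while LIF and IL11 each pair a receptor of their own with gp130, the product of Il6st, to activate STAT3.

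RefSeq promoters (GRCm38.p6) were available for 6 of the 8 genes, and Angpt1 and Mdk had no entry. Shown here are the 250 bases before the annotated start of genes with an entry whose LSK d1 arrays lay wholly apart from the medium d1 arrays. These were Cxcl12, Csf1 and Ptn on the lower side and Lif on the higher side. Such separation held for 62.5% of all genes tested, so this choice does not mark a response to LSK cells. None of these genes passed the threshold given below in that comparison. The adjusted p from limma was 0.136 for Cxcl12, 0.353 for Csf1, 0.772 for Ptn and 0.879 for Lif. The sequences run 5′ to 3′ on the gene's strand. Capitals mark matches on either strand to the GC box GGGCGG, the AP-1 motif TGANTCA, the TATA box TATAAA, the STAT motif TTCNNNGAA, the NF-kB motif GGGNNTTCC or the HIF core ACGTG.
Cxcl12, chr6:117168285-117168534, plus strand: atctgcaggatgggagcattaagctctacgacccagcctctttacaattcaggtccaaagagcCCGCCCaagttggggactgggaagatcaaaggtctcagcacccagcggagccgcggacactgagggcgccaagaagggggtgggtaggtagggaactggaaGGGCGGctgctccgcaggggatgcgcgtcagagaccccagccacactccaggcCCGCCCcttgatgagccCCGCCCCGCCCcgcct
Csf1, chr3:107760470-107760719, minus strand: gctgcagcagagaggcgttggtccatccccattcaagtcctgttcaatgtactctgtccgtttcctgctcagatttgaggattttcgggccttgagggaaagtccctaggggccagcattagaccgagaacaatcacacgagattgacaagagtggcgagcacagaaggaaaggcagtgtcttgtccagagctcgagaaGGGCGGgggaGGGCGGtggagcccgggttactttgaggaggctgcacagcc
Ptn, chr6:36810180-36810429, minus strand: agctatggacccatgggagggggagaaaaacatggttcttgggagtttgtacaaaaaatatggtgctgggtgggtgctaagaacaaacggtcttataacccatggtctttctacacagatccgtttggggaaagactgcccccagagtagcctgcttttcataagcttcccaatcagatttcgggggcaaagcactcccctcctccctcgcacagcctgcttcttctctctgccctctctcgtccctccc
Lif, chr11:4257318-4257567, plus strand: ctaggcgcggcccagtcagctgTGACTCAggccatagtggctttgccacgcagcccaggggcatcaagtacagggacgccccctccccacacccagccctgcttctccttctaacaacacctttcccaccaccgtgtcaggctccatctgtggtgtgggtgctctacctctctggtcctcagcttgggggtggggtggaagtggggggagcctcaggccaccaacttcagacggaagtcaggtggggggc
The Cxcl12 window held 5 GC box matches and the Csf1 window 2, and 32.7% of 32851 promoter windows of the same length held at least 1. The Lif window held 1 AP-1 match, a motif found in 6.75% of windows. None of the 6 motifs lay in the Ptn window. The shares for the other motifs were 12.4% for the TATA box, 7.02% for the STAT motif, 4.98% for the NF-kB motif and 16.6% for the HIF core. A match describes letters in the reference sequence and not binding.

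Cxcl12 was the 1 member called, and that call depended on single arrays. It was lower on each of the 8 co-culture arrays than on each of the 5 arrays without LSK cells, and it fell past the threshold in LSK d2 stroma against d0. No other tested member passed in any of the 7 comparisons under limma's fit of all 13 arrays, with Benjamini-Hochberg adjustment over 12205 genes and a threshold of 0.05. Kitl, Angpt1, Ptn and Csf1 gave lower means in parts of the co-culture. Kitl, Angpt1 and Ptn also had lower means in medium d1, without LSK cells, than at d0, with differences of -1.86, -1.73 and -0.72. Lif gave a higher mean at LSK d1, and Mdk and Il11 lay at or near their lowest values. Levels are log2 probe set values, changes are log2 differences ± standard error, and a difference of 1 is a doubling.

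**Figure D1:**
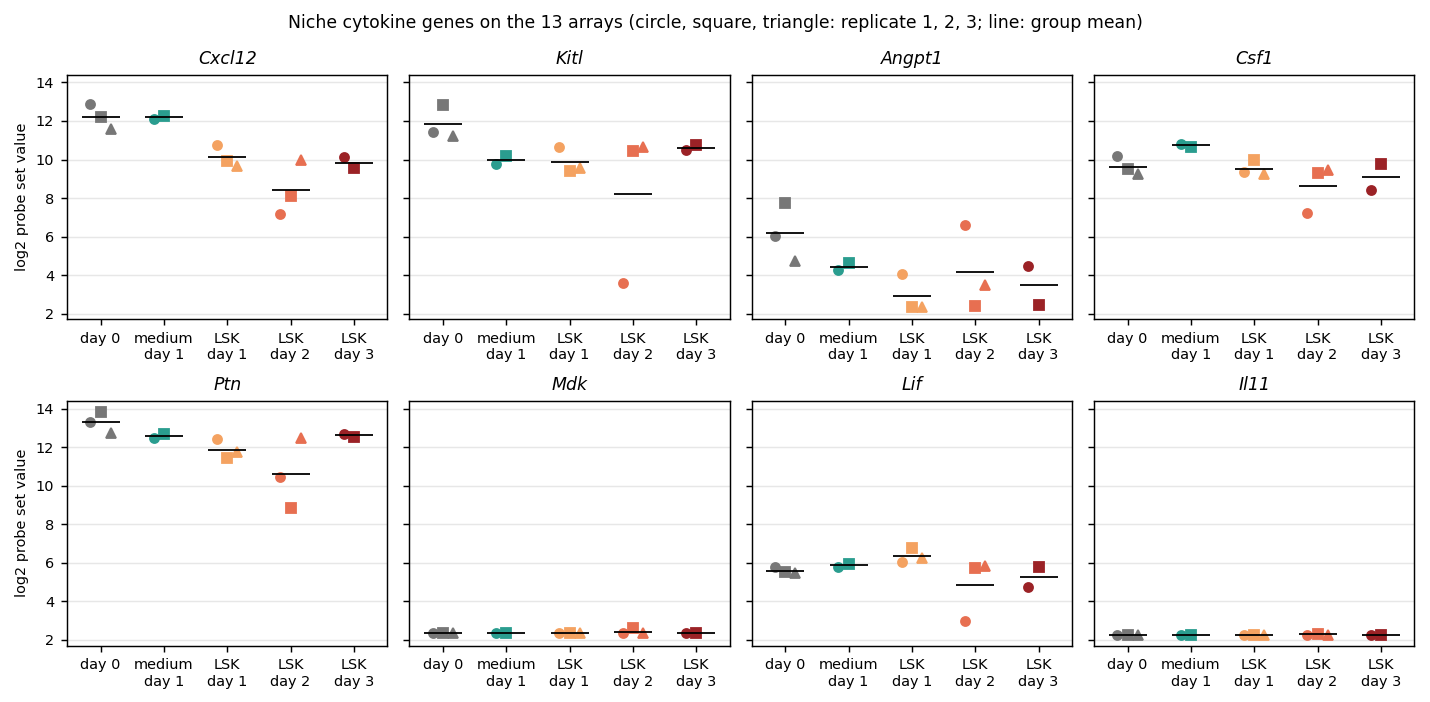
Log2 probe set values of the 8 niche cytokine genes on the 13 arrays, by group, each point an array with its shape giving the replicate number, and each line a group mean. Cxcl12 lay between 7.20 and 10.77 on the 8 co-culture arrays, below the 11.59 to 12.86 of the 5 arrays without LSK cells, and LSK d2 replicate 1 was the lowest array for Cxcl12, Kitl, Csf1 and Lif.

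Several features of whole arrays moved with co-culture. The poly-A spike-in controls averaged 10.07 to 14.44 on the 8 co-culture arrays, against 4.63 to 8.55 on the arrays without LSK cells. Ptprc, which encodes the leukocyte protein CD45, measured 2.69 to 4.13 in LSK d1, 6.94 to 10.93 in LSK d2 and 5.34 and 9.18 in LSK d3, and lay at the lowest value, 2.28, on all medium d1 and d0 arrays. Of 17 tested myeloid markers, 7, 15 and 12 had group means above 5 in LSK d1, LSK d2 and LSK d3, against 2 in medium d1 and 2 at d0. The 11 tested stromal identity markers (collagens, Vim, Fn1 and others) averaged 8.47 to 11.15 over the co-culture arrays, against 11.02 to 11.82 over the others, and all 11 had means above 5 in every group but LSK d2, where 10 did. Of 3 tested endothelial markers 1 had a group mean above 5, and of 5 epithelial markers 0, in each group. LSK d2 replicate 1 stood apart, with 3' probe sets of Gapdh above the 5' probe set by 8.96, as did LSK d3 replicate 2 at 5.79, against 2.15 to 3.82 on the other arrays, and changes of LSK d2 and LSK d3 against d0 are also given without the array of their group that stood apart. Without LSK d3 replicate 2 that group held a lone array, which the fit assumes to vary like the others. Changes in the share of cells and changes in RNA per cell cannot be told apart in such bulk samples, and the part of these shifts in the results below was not tested.

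Cxcl12, the chemokine gene, measured 10.77, 9.94 and 9.67 on the LSK d1 arrays, against 12.10 and 12.28 on the medium d1 arrays. It measured 7.20, 8.11 and 10.00 in LSK d2 and 10.11 and 9.54 in LSK d3, against 12.86, 12.19 and 11.59 at d0. All co-culture arrays lay below all others, and the LSK d2 arrays were spread over more than the other groups. Among all genes tested, 7.69% were lower on each of the 8 co-culture arrays than on each of the other 5, and Cxcl12 was the 1 member of 7 among them. This comparison over all co-culture arrays was chosen after the data had been seen.

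The fall of Cxcl12 in LSK d2 against d0 was -3.78 ± 0.65, with group means of 8.44 ± 1.43 and 12.22 ± 0.64 (SD, n = 3 each), and limma's adjusted p was 0.0289. It was 1 of 7 members called, against 2.26% of all genes. At LSK d1 the change was -2.06 ± 0.72 against medium d1 (adjusted p = 0.136, limma) and -2.09 ± 0.65 against d0 (adjusted p = 0.131, limma). At LSK d3 it was -2.39 ± 0.72 against d0 (adjusted p = 0.177, limma), and -2.11 ± 0.96 without LSK d3 replicate 2 (0.466). A 24 h change of medium alone left Cxcl12 at 12.19 ± 0.13 in medium d1 (n = 2), against 12.22 ± 0.64 at d0 (n = 3). That difference was -0.03 ± 0.72. A single F test over the 5 groups also called Cxcl12 (adjusted p = 0.0400, limma), beside 3.62% of all genes and no other member.

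Single arrays decided these calls. The LSK d2 call was lost when d0 replicate 1 or 2, either medium d1 array, any LSK d1 array or LSK d2 replicate 2 was left out, with adjusted p up to 0.105, and it held without each of the other 5 arrays, at -3.16 ± 0.59 without LSK d2 replicate 1. Without LSK d2 replicate 1, Cxcl12 passed at LSK d1 against medium d1 (adjusted p = 0.0453), at LSK d1 against d0 (0.0419) and at LSK d3 against d0 (0.0458) in limma's fit, with the same differences, since that array sets only the spread in these. Without LSK d2 replicate 3 it passed in the same 3 comparisons (0.0328, 0.0286 and 0.0387) and fell in LSK d2 against LSK d1 by 2.47 ± 0.47 (adjusted p = 0.0109, limma). With all arrays that last difference was -1.69 ± 0.65 (adjusted p = 0.378, limma), and without LSK d2 replicate 1 it was -1.07 ± 0.59 (0.567). The F test's call was lost without 11 of the 13 arrays, all but LSK d2 replicates 1 and 3.

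**Figure D2:**
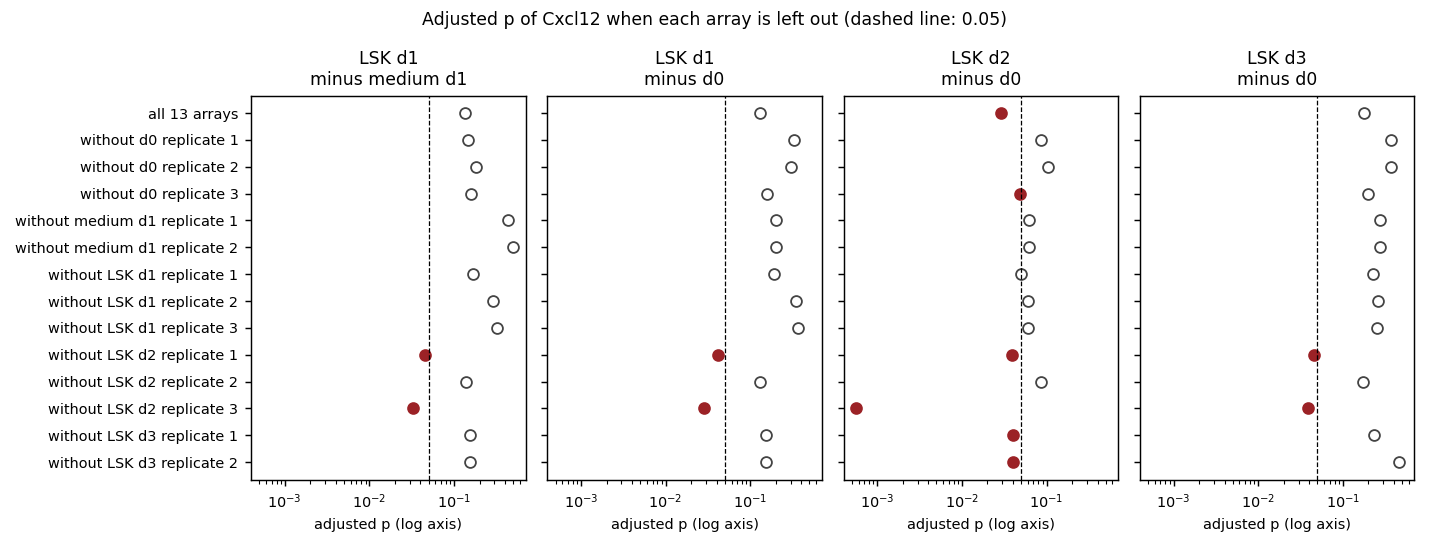
Adjusted p of Cxcl12 (log axis) in 4 comparisons with all 13 arrays, in the top row, and with each array left out in turn; filled points lie below the dashed threshold of 0.05. In LSK d2 against d0, 5 of the 13 left-out arrays kept the adjusted p under the threshold, and in each of the other 3 comparisons 2 did.

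A second probe set of Cxcl12, 1417574_at, was likewise lower in each co-culture group. It measured 10.49, 9.82 and 10.37 in LSK d1 and 4.17, 6.66 and 10.03 in LSK d2, against 12.35 and 12.00 in medium d1 and 12.74, 11.57 and 11.42 at d0. Its LSK d3 arrays, at 9.32 and 7.40, were also lower than every array without LSK cells. The third, 1439084_at, stayed between 2.28 and 2.66 on all arrays and carried no readable change. Subtracting each array's mean of the 11 stromal identity markers left Cxcl12 at -1.34 to -0.30 on the 8 co-culture arrays, against 0.37 to 1.46 on the other 5. The 2 ranges did not overlap, but the markers in this mean did not move together. On LSK d2 replicate 1, Vim measured 13.22 and Lgals1 14.72, while Col1a2 measured 3.71 and Col3a1 4.09. The mean is therefore no measure of the share of stroma in an array, and what sets the remaining difference was not tested.

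**Figure D3:**
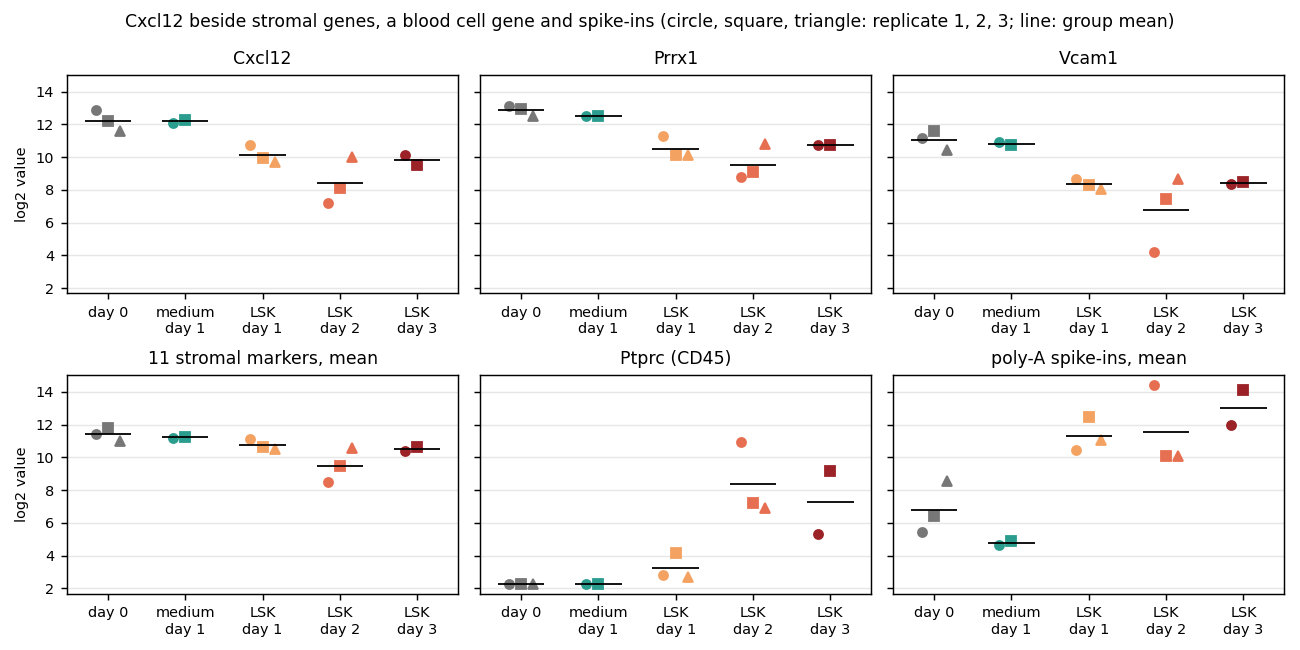
Log2 values by array and group for Cxcl12, the stromal genes Prrx1 and Vcam1, the mean of 11 stromal identity markers, Ptprc and the mean of 8 poly-A spike-in probe sets, with lines at group means. Cxcl12, Prrx1 and Vcam1 were lower on all 8 co-culture arrays than on the other 5, while Ptprc and the spike-ins were higher; the stromal marker mean overlapped between the arrays with and without LSK cells.

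Kitl, which encodes stem cell factor, had its highest values at d0. It measured 10.66, 9.42 and 9.56 in LSK d1, 3.57, 10.46 and 10.66 in LSK d2 and 10.47 and 10.77 in LSK d3. In medium d1 it measured 9.77 and 10.17, and at d0 11.40, 12.84 and 11.25. Every later array lay below every d0 array, medium d1 included, and LSK d2 replicate 1 lay far below its group.

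The Kitl differences from d0 were -1.95 ± 1.58 at LSK d1 (adjusted p = 0.637, limma), -3.60 ± 1.58 at LSK d2 (0.185), -1.21 ± 1.77 at LSK d3 (0.884) and -1.86 ± 1.77 in medium d1 (0.938). LSK d1 minus medium d1 was -0.09 ± 1.77, a standard error that leaves a wide range of differences undetected. Without LSK d2 replicate 1 the standard error of the LSK d1 change against d0 shrank to 0.46 and Kitl passed (adjusted p = 0.0342, limma), while the LSK d2 difference from d0 became -1.27 ± 0.52. Without LSK d3 replicate 2 the LSK d3 difference was -1.36 ± 2.38. A second probe set, 1448117_at, disagreed on the medium control, with LSK d1 lower than medium d1 by a difference of -1.98 and medium d1 minus d0 at -0.47.

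Angpt1, the gene of the TEK ligand angiopoietin 1, measured 4.06, 2.35 and 2.37 in LSK d1, against 4.26 and 4.64 in medium d1 and 6.05, 7.75 and 4.73 at d0. In LSK d2 it measured 6.60, 2.39 and 3.50, and in LSK d3 4.46 and 2.48. The LSK d1 arrays lay below all medium d1 and d0 arrays, and several co-culture arrays sat at the filter value of 2.38 or close to it, where the floor of the table limits how low a value can read. The high LSK d2 array was replicate 1, on which the progenitor marker Cd34 also measured 7.75.

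Angpt1 at LSK d1 differed by -3.25 ± 1.13 from d0 (adjusted p = 0.174, limma) and by -1.52 ± 1.27 from medium d1 (0.606). The differences from d0 were -2.01 ± 1.13 at LSK d2, -2.71 ± 1.27 at LSK d3 and -1.73 ± 1.27 in medium d1, none past the threshold. Without LSK d2 replicate 1 the LSK d1 fall against d0 passed (adjusted p = 0.0466, limma), and the LSK d2 difference became -3.23 ± 0.95. Without LSK d3 replicate 2 the LSK d3 difference was -1.72 ± 1.61.

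Csf1, the macrophage growth factor gene, measured 9.38, 9.95 and 9.23 in LSK d1, against 10.81 and 10.67 in medium d1 and 10.16, 9.51 and 9.24 at d0. It measured 7.21, 9.30 and 9.44 in LSK d2 and 8.44 and 9.78 in LSK d3. Both medium d1 arrays lay above every other array, and the LSK d1 and d0 ranges overlapped. LSK d1 minus medium d1 was -1.22 ± 0.67 (adjusted p = 0.353, limma), LSK d1 minus d0 was -0.12 ± 0.59, and medium d1 minus d0 was 1.10 ± 0.67 (adjusted p = 0.734, limma). LSK d2 minus d0 was -0.99 ± 0.59 with LSK d2 replicate 1 and -0.26 ± 0.42 without it.

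The Csf1 probe sets did not move together. LSK d1 minus medium d1 was also negative on 1448914_a_at, at -1.59, but positive on 1425154_a_at and 1425155_x_at, at 0.33 and 0.40. Medium d1 minus d0 was 1.47 on the first of these and 0.09 and -0.12 on the other two. With LSK d2 replicate 1 and LSK d3 replicate 2 left out together, the LSK d1 change of Csf1 against medium d1 passed (adjusted p = 0.0330, limma) and that of Cxcl12 did not.

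**Figure D4:**
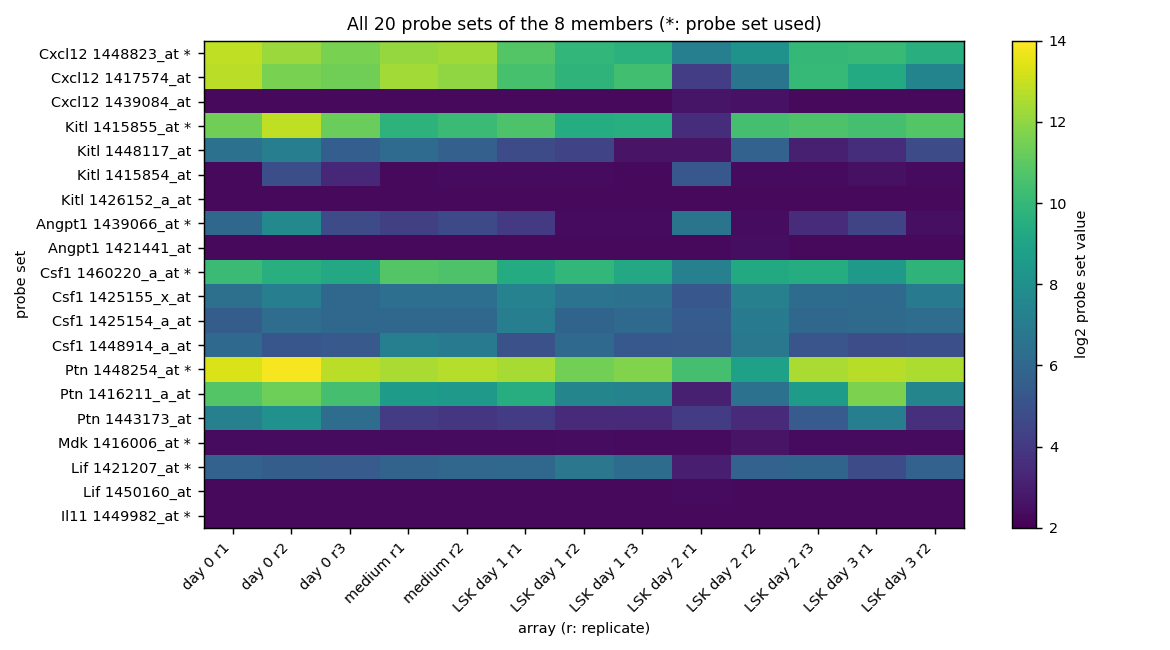
Heat map of the log2 values of all 20 probe sets of the 8 genes (rows, asterisk for the one used) on the 13 arrays (columns). The used probe set and 1417574_at of Cxcl12 were lower in co-culture, the 4 Csf1 probe sets differed in their response to medium, and the Mdk and Il11 rows stayed near the lowest value.

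Ptn, the pleiotrophin gene, measured 12.41, 11.44 and 11.74 in LSK d1, against 12.49 and 12.66 in medium d1 and 13.31, 13.83 and 12.74 at d0. It measured 10.44, 8.87 and 12.49 in LSK d2 and 12.71 and 12.52 in LSK d3. Every later array lay below every d0 array, and LSK d2 was the widest group. The LSK d2 change against d0 was -2.70 ± 0.75 (adjusted p = 0.0820, limma), without LSK d2 replicate 1 it was -2.62 ± 0.87 (0.133), and without LSK d2 replicate 3 it was -3.64 ± 0.50 (0.00172).

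At LSK d1 Ptn differed by -1.43 ± 0.75 from d0 (adjusted p = 0.377, limma) and by -0.71 ± 0.83 from medium d1 (0.772). Its LSK d3 change against d0 was -0.68 ± 0.83, and -0.59 ± 1.12 without LSK d3 replicate 2. The other 2 Ptn probe sets gave larger differences between medium d1 and d0, of -2.32 and -3.17, against -0.72 on the one used. Mdk, the midkine gene, lay at 2.34 on all arrays but LSK d1 replicate 2 and LSK d2 replicate 2, at 2.39 and 2.61, and passed the filter through these 2 arrays, so its differences describe values at the floor of the table.

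Lif, a gp130 cytokine gene, had its highest values at LSK d1. It measured 6.03, 6.78 and 6.24 there, against 5.81 and 5.95 in medium d1 and 5.80, 5.54 and 5.46 at d0. It measured 3.00, 5.75 and 5.86 in LSK d2 and 4.76 and 5.78 in LSK d3. The LSK d1 arrays lay above all others. Of the later co-culture arrays, LSK d2 replicate 3 lay just above the d0 arrays, and the rest lay within their range or below it. LSK d1 minus medium d1 was 0.47 ± 0.75 (adjusted p = 0.879, limma), LSK d1 minus d0 was 0.75 ± 0.67 (0.687), and LSK d2 minus LSK d1 was -1.48 ± 0.67 (0.397). LSK d2 minus d0 was -0.73 ± 0.67, and 0.21 ± 0.31 without LSK d2 replicate 1, which also left LSK d2 minus LSK d1 at -0.55 ± 0.31 (adjusted p = 0.579, limma). With both LSK d2 replicate 1 and LSK d3 replicate 2 left out, Lif passed at LSK d1 against d0 (adjusted p = 0.0486, limma). Il11 lay at 2.28 on 12 arrays and at 2.31 on LSK d2 replicate 2.

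**Figure D5:**
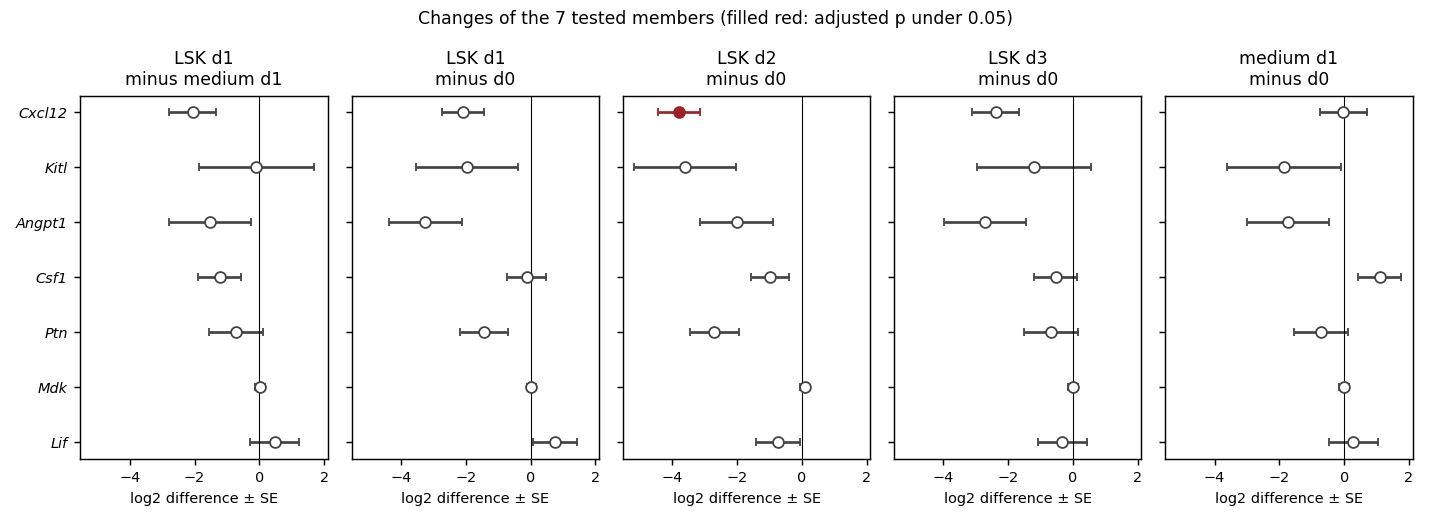
Log2 differences ± standard error of the 7 tested members in 5 comparisons, the first named group minus the second; filled red points have an adjusted p under 0.05. Cxcl12 in LSK d2 minus d0, at -3.78 ± 0.65, was the 1 filled point, and the wide bars of Kitl reflect a shared standard error of 1.58 to 1.77.

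Counted over the members, groups that did not overlap were common, and so they were over all genes. Between LSK d1 and medium d1 this held for 5 of 7 members (Angpt1, Csf1, Cxcl12 and Ptn lower, Lif higher), against 62.5% of all genes. Between LSK d1 and d0 it held for 5 (Angpt1, Cxcl12, Kitl and Ptn lower, Lif higher), against 39.0%. Between LSK d2 and d0 it held for 3 (Cxcl12, Kitl and Ptn, all lower), against 22.7%, and between LSK d3 and d0 for 4 (Angpt1, Cxcl12, Kitl and Ptn, all lower), against 35.6%. Between medium d1 and d0 it held for 5 (Angpt1, Kitl and Ptn lower, Csf1 and Lif higher), against 43.3%. It held for 1 between LSK d2 and LSK d1 (Lif, lower), against 12.4%, and for 2 between LSK d3 and LSK d1 (Lif lower, Ptn higher), against 19.8%. These comparisons share arrays, and their counts are not independent.

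Past the threshold, 0 members were called between LSK d1 and medium d1, where 5.20% of all genes were, and 0 between LSK d1 and d0, where 2.15% were. At unadjusted p under 0.05, Cxcl12 was the 1 such member of 7 against medium d1, beside 20.9% of all genes, and Angpt1 and Cxcl12 were the 2 against d0, beside 17.3%. None were called between LSK d3 and d0 (0.819% of genes), medium d1 and d0 (0.328%), LSK d2 and LSK d1 or LSK d3 and LSK d1 (0.00819% each). At unadjusted p under 0.05, Cxcl12 was the 1 such member between LSK d3 and d0, beside 13.8% of all genes, and between LSK d2 and LSK d1, beside 12.6%. There were 0 such members between medium d1 and d0, beside 9.45% of genes, and between LSK d3 and LSK d1, beside 2.93%. Between LSK d2 and d0, Cxcl12, Kitl and Ptn had an unadjusted p under 0.05, and the share of all genes there is not given here. The median change over the 7 members was -0.71 for LSK d1 against medium d1, where that of all genes was 0.00, and -2.01 for LSK d2 against d0, where that of all genes was -0.29. For LSK d2 the member median was -1.27 without LSK d2 replicate 1. Against d0 it was -1.43 at LSK d1 and -0.68 at LSK d3, with 0.00 over all genes in both. The median of all genes includes genes near the floor of the table, which can hardly fall, so the sets compared are unlike. For LSK d1 against medium d1 and LSK d2 against d0, the tested stromal identity markers had medians of -0.57 and -1.76. The tested myeloid markers had 0.46 and 3.87.

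Receptors for these cytokines were followed as 20 listed genes, of which 13 were tested, and Kit, Tek, Ptprz1, Alk and Il11ra1 were not. Lifr, the LIF receptor gene, fell in LSK d2 against d0 by 3.64 ± 0.69 (adjusted p = 0.0371, limma). It was the 1 receptor called in any comparison, beside 2.26% of all genes in this one. Lifr measured 5.95, 7.71 and 9.26 in LSK d2, against 11.12, 11.49 and 11.22 at d0. The medium d1 arrays lay between them, at 9.85 and 9.80. Its call held without 4 of the 13 arrays in turn, among them LSK d2 replicate 1 (-2.79 ± 0.48, adjusted p = 0.0317, limma). Cxcr4, the CXCL12 receptor, measured 10.74 on LSK d2 replicate 1 and 2.28 to 2.53 on the other 12 arrays. Csf1r likewise measured 11.50 there, and between 3.32 and 8.25 elsewhere.

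Of 14 tested related ligands of 24 listed, Clcf1, another gp130 cytokine gene, was the 1 called. It measured 9.33, 9.30 and 9.14 in LSK d1, against 7.11 and 7.28 in medium d1 (2.06 ± 0.41, adjusted p = 0.0276, limma), while the d0 arrays measured 7.87, 9.01 and 8.93, between the 2 groups. Among 13 tested feedback genes and targets of gp130 signalling, of 15 listed, 2 rose at LSK d1 against medium d1. In that comparison, also that of the Clcf1 call, 5.20% of all genes were called. Pim1, a survival kinase gene, measured 8.61, 9.29 and 9.03 against 6.70 and 6.69 (2.28 ± 0.47, adjusted p = 0.0306, limma). Cish, a SOCS-family inhibitor gene, rose by 2.27 ± 0.51 (0.0398), with d0 close to LSK d1, at 6.57 to 6.75. Pim1 rose also against d0 at LSK d1 (1.95 ± 0.42, 0.0495) and at LSK d2 (2.39 ± 0.42, 0.0303), calls that held without 3 and 4 of the 13 arrays in turn. Without LSK d2 replicate 1 the LSK d2 change was 1.86 ± 0.26 (0.0165). Against d0, 2.15% of all genes were called at LSK d1 and 2.26% at LSK d2. Pim1 was higher on all 8 co-culture arrays than on the other 5, and the share of all genes that were so is not given here. Of the calls against medium d1, that of Clcf1 held without 8 arrays in turn, that of Pim1 without 8 and that of Cish without 6.

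Other niche signals were 29 listed genes, 21 of them tested. Over all genes, 2.26% were called in LSK d2 against d0 and 5.20% in LSK d1 against medium d1. In LSK d2 against d0, 3 fell: Vcam1, the adhesion ligand of blood stem cells, by 4.29 ± 0.91 (adjusted p = 0.0478, limma), the Notch ligand gene Jag1 by 3.54 ± 0.72 (0.0426) and the growth factor gene Fgf7 by 2.92 ± 0.61 (0.0458). These calls held without 2, 1 and 1 of the 13 arrays in turn, and without LSK d2 replicate 1 only Vcam1 of the 3 passed (adjusted p = 0.0150, limma, against 0.0509 for Jag1 and 0.0668 for Fgf7). Vcam1 measured 4.22, 7.46 and 8.68 in LSK d2, against 11.19, 11.60 and 10.44 at d0. At LSK d1 against medium d1, Igf1 was the 1 gene called, and it fell by 3.40 ± 0.79 (adjusted p = 0.0427, limma), held without 5 arrays in turn, and its d0 arrays spanned 4.62 to 7.52. The median change of the 21 genes in LSK d2 against d0 was -2.16, beside -0.29 over all genes, and -1.39 without LSK d2 replicate 1.

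Of 25 listed regulators and markers of niche stroma, 23 were tested. The share of all genes called was 2.26% in LSK d2 against d0, 2.15% in LSK d1 against d0 and 5.20% in LSK d1 against medium d1. Prrx1, a mesenchymal homeobox gene, fell in LSK d2 against d0 by 3.31 ± 0.50 (adjusted p = 0.0194, limma) and in LSK d1 against d0 by 2.34 ± 0.50 (0.0497). It measured 11.26, 10.14 and 10.15 in LSK d1 and 8.76, 9.11 and 10.77 in LSK d2, against 13.14, 12.93 and 12.49 at d0, and its calls held without 8 arrays in turn at LSK d2 and 3 at LSK d1. The LSK d2 change of Prrx1 was -2.91 ± 0.50 (adjusted p = 0.0313, limma) without LSK d2 replicate 1. Cebpb rose at LSK d1 against medium d1 (1.09 ± 0.26, adjusted p = 0.0445, limma) and against d0 (1.19 ± 0.23, 0.0384), held without 5 and 6 arrays in turn. Among the 11 tested stromal identity markers 0 passed in these comparisons, with a median change of -1.76 in LSK d2 against d0 (-1.31 without LSK d2 replicate 1) and -0.57 in LSK d1 against medium d1. Leaving out LSK d2 replicate 1 brought the called regulators to 9 at LSK d1 against medium d1, 4 higher and 5 lower, Prrx1 among the lower. That array is in neither group and sets only the spread there. Without it, calls over all genes also rose in another comparison, LSK d3 against d0, from 100 to 939. Whether the rise at LSK d1 against medium d1 was particular to these regulators was not tested.

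Of 16 listed genes that cut, bind or protect these cytokines, 13 were tested. The share of all genes called was 5.20% at LSK d1 against medium d1. Against d0 it was 2.15% at LSK d1, 2.26% at LSK d2 and 0.819% at LSK d3. Ctsg, a neutrophil protease gene that can cleave CXCL12, rose in all 4 comparisons of co-culture with medium d1 or d0, among them LSK d2 against d0 by 8.21 ± 0.81 (adjusted p = 0.00406, limma), and these calls held without 5 to 13 of the 13 arrays in turn. The LSK d2 change of Ctsg was 7.03 ± 0.32 (adjusted p = 0.000102, limma) without LSK d2 replicate 1, and without LSK d3 replicate 2 its LSK d3 change was 8.99 ± 1.21 (0.0346). It measured 7.06 to 13.14 on the co-culture arrays, against 2.56 to 3.20 on the others, and is also on the myeloid marker list. Mmp2 fell in LSK d2 against d0 by 2.05 ± 0.41 (adjusted p = 0.0426, limma), with 2.91 to 3.28 in LSK d2 against 4.45 to 6.14 at d0. The call held without 1 array in turn and was lost without LSK d2 replicate 1 (-2.04 ± 0.47, 0.0625). Without LSK cells, medium d1 was also below every d0 array, at 3.50 and 3.32, and LSK d1 measured 4.41, 3.56 and 4.03.

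The genes most like each member over the 13 arrays were found by Pearson's correlation, given as a description, since all genes of an array share its depth of signal and its RNA. Cxcl12 was nearest to Tbc1d2b (r = 0.988), Prrx1 (0.979) and Epm2aip1 (0.976), and over the 12 arrays without LSK d2 replicate 1 these were 0.983, 0.978 and 0.976. Angpt1 was nearest to Plscr4 (0.986), Pde7a (0.950) and Itga1 (0.948), at 0.987, 0.941 and 0.938 over those 12 arrays. Csf1 was nearest to Ptprk (0.961), Cep76 (0.961) and Hivep3 (0.959), at 0.967, 0.926 and 0.937, and Ptn to Abr (0.943), Scd1 (0.938) and Cavin2 (0.938), at 0.944, 0.947 and 0.936.

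For Kitl and Lif the likeness leaned on 1 array. Kitl was nearest to Pde8a (0.986), Insig2 (0.977) and Hltf (0.973), falling to 0.922, 0.873 and 0.869 over the 12 arrays without LSK d2 replicate 1. Lif was nearest to Dcaf15 (0.957), Atp6v0a2 (0.951) and Ltbp2 (0.947), falling to 0.819, 0.807 and 0.827. The likeness of Mdk to Speer4b, C230072F16Rik and C4bp-ps1 rested on the 2 arrays on which Mdk left its lowest value.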

How the data were processed

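RNA from 13 samples was amplified, labelled with biotin and hybridised to Affymetrix mouse arrays, per the labels' protocols. The authors deposited 1 value per probe set and array on a log2 scale, judged by values that span 2.28 to 15.74. Per the submitters' processing notes RMA and GCRMA were used, without a version and without saying which made these values. No further scaling was applied, and detection calls were not used here. Signal at the floor of the table limits low genes, and the number of arrays limits precision.

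A probe set entered if above the pooled median of 2.38 on at least 2 arrays, and each gene kept its single-symbol probe set with the highest mean (12205 genes from 45101 probe sets, 64 of them controls). One limma 3.58.1 fit (R 4.3.3) held a mean for each of the 5 groups, and eBayes p-values were Benjamini-Hochberg adjusted over all genes. Arrays were grouped by title. In 5 simulated runs with 200 genes changed by 2 (log2), the LSK d1 against d0 test recovered 39.0% of them, and 4.53% of its calls were false. The runs drew independent noise with the same spread on every array, unlike the wider LSK d2 group here, so these shares need not hold for the calls above. The 23 alternatives changed the filter, scaling, probe set rule, variance model, samples or replicate block. Figures used Python 3.11.15. For the niche-related lists, genes past the threshold were counted, and up to 3 per list and comparison were named. Blood, endothelial and epithelial marker lists were described by level. On these, 5 of 17 tested myeloid markers passed as higher in LSK d2 and 5 in LSK d3 against d0, Ctsg among both. Over all genes, 2.26% and 0.819% were called there. Runx1, Itga2b and Vpreb1 passed as higher at LSK d1 against medium d1, and Ptprc at LSK d2 against d0. Krt19 passed as lower at LSK d1 and LSK d2 against d0. The 3 genes most correlated with each tested member were also named. The members and lists were chosen with earlier results of these data known.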

Additional observations from a re-analysis of the deposited data

Results flagged for a closer look

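The poly-A spike-in probe sets lie outside the gene measurements and carried more signal with LSK cells present. Their mean over 8 probe sets was 11.3 in LSK d1, 11.5 in LSK d2 and 13.04 in LSK d3, against 4.75 in medium d1 and 6.80 at d0, and no co-culture array overlapped the others. Cxcl12 was lower on the same 8 arrays; the part of the spike-in signal in that result was not tested. Groups of 2 or 3 arrays are too small for the test for a single outlying array.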

How the results depend on the processing

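Of 1120 member values under 23 alternatives, 1045 kept direction and side of the threshold, 33 changed sign while past the threshold in neither setting, 31 newly passed, 11 no longer passed and 0 reversed while past it. Members past the threshold numbered 0 at LSK d1 against medium d1 (array weights 5, only the compared groups 2, both LSK d2 replicate 1 and LSK d3 replicate 2 left out 1), 0 at LSK d1 against d0 (5, 1 and 3), 1 at LSK d2 against d0 (2 with array weights; 0 with no filter, only the compared groups or the replicate block) and 0 in medium d1 against d0 (2 with array weights). The F test's 1 member became 0 with no filter, the mean of probe sets or the replicate block, 6 with array weights and 3 with both arrays left out. Of 12205 genes, array weights called 6423 at LSK d1 against medium d1 and 3583 at LSK d1 against d0. They called 3585 in medium d1 against d0 and 7312 in the F test, so the member counts under array weights stand beside calls over much of the table. With only the compared groups, 0 genes were called at LSK d2 against d0. Leaving out each array in turn gave 0 to 1 at LSK d1 against medium d1, 0 to 3 at LSK d1 against d0, 0 to 2 at LSK d2 against d0, 0 to 1 at LSK d3 against d0, 0 to 2 at LSK d2 against LSK d1 and 0 to 2 in the F test. Why these counts moved was not tested.

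Cxcl12 in LSK d2 against d0 passed in 12 of the 23 alternatives (adjusted p 0.000563 to 0.375, limma), quantile scaling (-3.25) and centring (-2.90) among them. With replicate number as a block its adjusted p was 0.0680 (limma). Deviations from group means had a median r of 0.00486 over 23 same-numbered pairs of arrays and -0.00462 over 44 other pairs. Such deviations cancel within a group and mirror each other in the smallest groups, so small medians are partly built in. Whether the numbers pair the arrays could not be decided from them. When arrays were centred on their measured probe sets, the median over all genes for LSK d2 against d0 was 0.59, against -0.29 as deposited. Quantile scaling and centring turned the sign of Kitl at LSK d1 against medium d1 (0.08 and 0.04) and of Csf1 at LSK d1 against d0 (0.04 and 0.02), and centring that of Lif at LSK d2 against d0 (0.15), none past the threshold. Calls over all genes ranged widely: 7 to 6423 against 635 at LSK d1 against medium d1, 9 to 3583 against 263 at LSK d1 against d0, 0 to 3497 against 276 at LSK d2 against d0, 4 to 939 against 100 at LSK d3 against d0, 4 to 3585 against 40 in medium d1 against d0, 0 to 1887 against 1 at LSK d2 against LSK d1, 0 to 106 against 1 at LSK d3 against LSK d1, and 17 to 7312 against 442 in the F test. Mdk had no value under the stricter filter of 5.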
